A study of Mus musculus with 70 samples.

Results

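The genes described here are the splicing factors and RNA binding proteins of the MPIP24k cDNA array, compared between mice bred for high (HAB) and low (LAB) anxiety-related behaviour in 7 brain regions. They were chosen by name alone: a spot belongs to the set when its array name begins with splicing factor, heterogeneous nuclear ribonucleoprotein (hnRNP), small nuclear ribonucleoprotein (snRNP), U2 small nuclear, RNA binding motif or muscleblind. This rule found 66 of 22824 probes, which carry 43 names. A name stands for 1 gene and is represented by its brightest probe, the one with the highest mean log2 intensity over all arrays. Of the 43 names, 29 have 1 probe and 14 have several. The name of the set fits its members except for methyltransferase-like 1 and 2 of the hnRNP class, which are enzymes named after their hnRNP substrates.

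Both lines are of the strain CD-1 (ICR), and all mice were untreated males, 10 weeks of age. RNA of the HAB mice and RNA of the LAB mice was pooled by region in the paraventricular nucleus (PVN), basolateral amygdala (BLA), central amygdala (CeA), nucleus accumbens (NAc), medial amygdala (MeA), cingulate cortex (Cg) and supraoptic nucleus (SON). For a region the 2 pools shared 10 arrays, of which 5 carried the HAB sample labelled with Cy3 and 5 the HAB sample labelled with Cy5. The series thus holds 70 arrays. Since 1 pool of each line stands behind all arrays of a region, these are technical replicates, and p-values from arrays weigh the difference between these pools, not between mice, against the spread between arrays. By the study's methods the regions were punched from 1 set of mice of each line, so that the 7 region values are not independent replicates of the lines, and a test over regions asks only whether the difference recurred from region to region. Tissue was punched from frozen slices and holds all cell types of a region, and fewer cells of a type cannot be told apart from less RNA per cell.

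Splicing removes introns from pre-mRNA in the spliceosome, which is built from snRNPs, particles of a small RNA with a ring of Sm proteins and proteins particular to each particle. SR proteins, rich in arginine and serine, bind exons and recruit the spliceosome, whereas hnRNPs coat the nascent RNA and often act against the use of a splice site. U2AF marks the end of the intron and SF3b anchors the U2 particle at the branch point. Muscleblind proteins and many RNA binding motif proteins set alternative splicing by tissue, and brain is among the tissues with most alternative exons.

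Median intensities of an array channel ran from 135 to 2480, and 15.2 to 84.1% of the probes of a channel were detected, that is brighter than the median of 1170 empty spots by over 2 of their median absolute deviations. Avp, the vasopressin gene, was detected on 10 of 10 channels of either line in the PVN, and in the SON on 10 HAB channels but 5 LAB channels. The other hypothalamic genes, Oxt and Trh, were detected on 9 or 10 channels of a line in the PVN, but on at most 5 in the SON. Penk1, the enkephalin gene of striatal neurons, was detected on 10 of 10 channels of either line in the NAc. In the BLA it was detected on 7 HAB and 8 LAB channels, but its mean log2 intensity lay farther above the array median (1.13 against 0.95). The other striatal genes, Ppp1r1b and Adora2a, were detected in the NAc on at most 4 and 9 channels of a line. Adora2a was detected most often in the PVN, on 10 HAB and 9 LAB channels. Of the 43 members, 30 (69.8%) were detected on at least 35 of the 70 channels of HAB or of LAB and are called bright here, against 54.8% of all probes. The 13 dim members, among them SR protein 1 (ASF/SF2), snRNP B, hnRNP L and RNA binding motif proteins 4, 5, 6 and 10, are measured with less certainty. Differences are given as log2 HAB/LAB, which is above 0 where HAB was the brighter line.

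No member passed the test for a line difference shared by the regions (limma over 7 region values, Benjamini-Hochberg adjustment over all probes, threshold 0.05), where 0.302% of all probes passed. The count of members at an unadjusted p under 0.05 was 2 (4.65%), against 6.33% of all probes. The median of the 43 members over the regions was -0.01, beside 0.00 for all probes, with 18 members above 0 and 25 below. Means lay between -0.32 and 0.17, and 42 members were within 0.2 of 0.

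**Figure D1:**
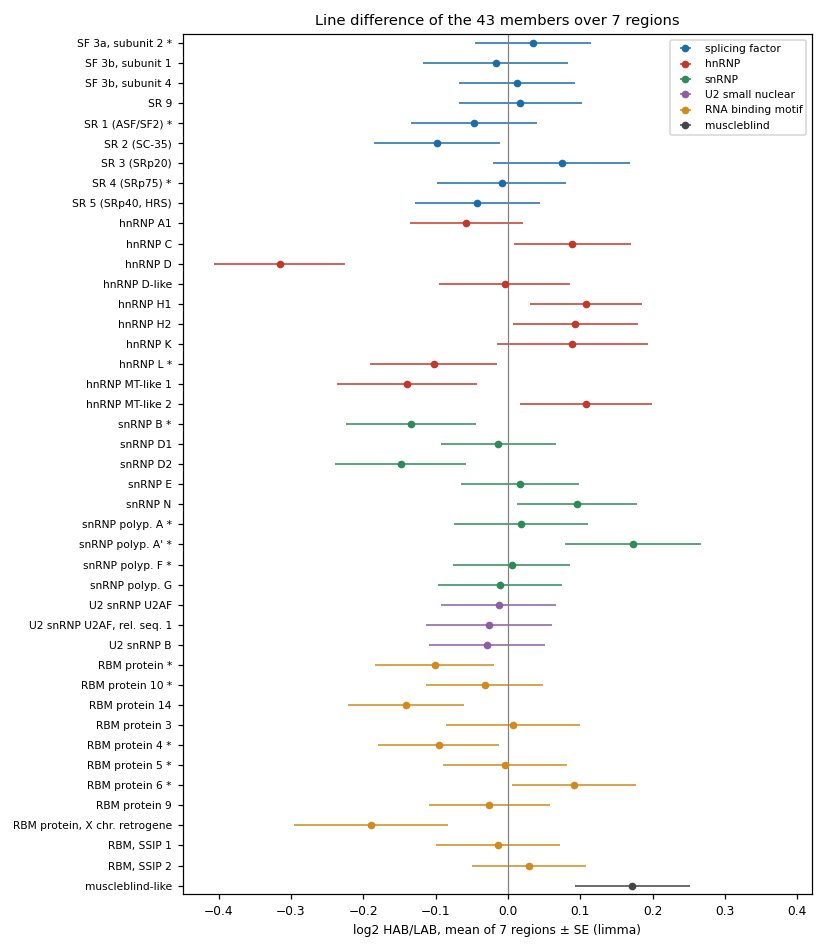
Mean log2 HAB/LAB over 7 regions (x axis) of each of the 43 members (rows), with the standard error from limma as the bar and the name class as the colour. An asterisk marks the 13 dim members. All but hnRNP D lie within 0.2 of 0, and none passed the test over regions.

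The member farthest from 0 was hnRNP D, also known as AUF1, which binds AU-rich elements and controls mRNA decay. It stood at -0.32 (SE 0.091, adjusted p = 0.26 by limma) and was below 0 in 6 of 7 regions. Both dye orientations gave nearly the same value, -0.29 where HAB carried Cy3 and -0.34 where it carried Cy5. The region means were 0.06 in the PVN, -0.16 in the BLA, -0.23 in the CeA, -0.51 in the NAc, -0.14 in the MeA, -0.63 in the Cg and -0.59 in the SON. In the Cg the 10 arrays ran from -1.03 over a median of -0.60 to -0.10, all lower in HAB. In the NAc 9 of 10 arrays were lower in HAB, from -1.24 over -0.54 to 0.55, and in the SON 8 of 10, from -1.12 over -0.49 to 0.04. The arrays of the BLA, the CeA and the Cg were scanned on more than 1 day. The dye orientations were split unevenly over these days. Cy3 labelled the HAB sample on 1 of 6 and 4 of 4 arrays in the Cg. In the CeA it did so on 2 of 2 and 3 of 8 arrays. In the BLA it did so on 3 of 7 and 2 of 3. Means by scanning day, here and below, thus mix day with dye and do not separate their effects. In the Cg hnRNP D stood at -0.77 on 6 arrays of one day and at -0.43 on 4 of the other, in the CeA at 0.30 on 2 arrays and -0.37 on 8, and in the BLA at -0.01 on 7 and -0.53 on 3. Its spot was detected on 65 channels of each line.

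The only muscleblind member on the array, muscleblind-like, encodes a regulator of alternative exons that is sequestered by repeat RNA in myotonic dystrophy. On these arrays the mean of muscleblind-like was 0.17 (SE 0.080, adjusted p = 0.765 by limma). Its region means ran from 0.00 in the BLA and 0.02 in the PVN over 0.14 in the MeA, 0.16 in the CeA, 0.27 in the SON and 0.28 in the Cg to 0.33 in the NAc. The arrays of a region overlapped 0 throughout. In the NAc they ran from -0.56 over a median of 0.47 to 0.93 with 8 of 10 higher in HAB, and in the BLA from -1.81 over 0.20 to 1.35 with 5 of 10. The orientations differed: the mean over regions was 0.49 on arrays with HAB in Cy3 and -0.14 on those with HAB in Cy5. In the BLA the 2 means were 0.88 and -0.88, and by scanning day muscleblind-like stood there at -0.19 on 7 arrays and 0.44 on 3. The MeA (0.10 and 0.18) and the SON (0.20 and 0.35) were the regions where HAB in Cy5 gave the higher value. On the arrays with HAB in Cy3 alone muscleblind-like passed the test over regions (adjusted p = 0.0463 by limma), which the mean of both orientations did not. In 1 orientation a dye effect cannot be told apart from a line difference, and the share of all probes passing was not counted.

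Each member was also compared between the dye orientations, a difference that should be 0 if labelling had no part in the ratio. The value was higher with HAB in Cy3 for 32 of the 43 members and lower for 11, with a median difference of 0.24 beside -0.01 for all probes. The median of the 30 bright members was 0.29, beside 0.12 for all bright probes. The test over regions (limma, adjusted over all probes) called 2 members (4.65%) higher with HAB in Cy3, where 2.52% of all probes passed. Both are among the 30 bright members, and 4.46% of all bright probes passed. The test called none with HAB in Cy5 higher, where 2.44% of all probes passed. The called members were hnRNP H2, which binds G-rich sequences, and snRNP N, the brain-enriched Sm protein encoded at the imprinted Snrpn locus. For hnRNP H2 the means were 0.64 where HAB carried Cy3 and -0.45 where it carried Cy5 (adjusted p = 0.00991), and the mean of both was 0.09. In the Cg the 5 arrays of hnRNP H2 with HAB in Cy3 stood at 0.94 or more and the 5 others at -0.09 or less. The orientations of hnRNP H2 did not overlap in the BLA, CeA, NAc, MeA and Cg, and in the SON their order was reversed (0.22 and 0.40). For snRNP N the means were 0.44 and -0.25 (adjusted p = 0.0337), and the mean of both was 0.10. Splicing factor 3b subunit 1 had a difference of similar size to muscleblind-like (0.63 for either), with 0.30 and -0.33 (adjusted p = 0.0912).

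**Figure D2:**
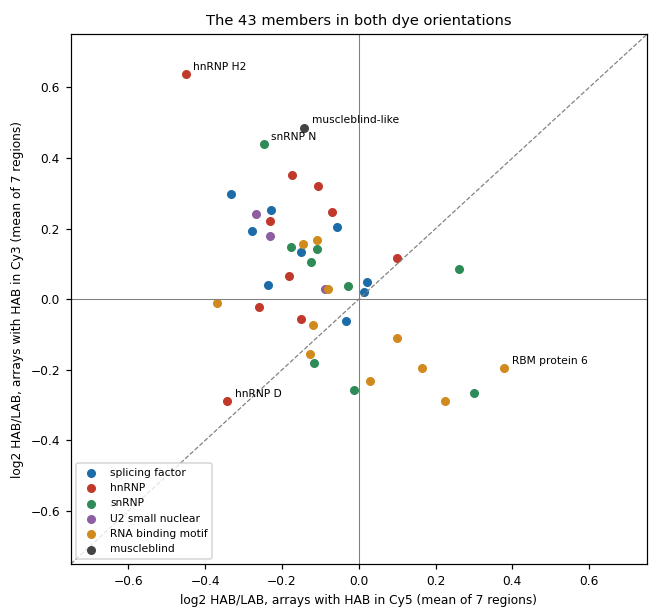
Mean log2 HAB/LAB over 7 regions, 1 point per member, with the x axis for arrays where HAB was labelled with Cy5 and the y axis for arrays where it was labelled with Cy3, coloured by name class. The dashed line marks equal values. Of the 43 points 32 lie above it, hnRNP H2 farthest (0.64 against -0.45), whereas hnRNP D lies close to it (-0.29 against -0.34).

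The 3 widest dye differences of the opposite sign were those of dim members. RNA binding motif protein 6 stood at -0.20 where HAB carried Cy3 and 0.38 where it carried Cy5, snRNP polypeptide A, a U1 protein, at -0.26 and 0.30, and RNA binding motif protein 10, whose loss alters exon choice, at -0.29 and 0.22. None of the 3 passed the test (limma, adjusted p = 0.134, 0.100 and 0.140).

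Within single regions, a member was counted when HAB and LAB differed by 1.3-fold or more on average and none of the 10 arrays went the other way. Of 301 member and region pairs, none was counted higher in HAB, where 0.397% of all pairs were, and 5 (1.66%) were counted lower, where 0.559% of all pairs were. These 5 belong to 3 members and to 2 regions, the NAc and the Cg. The same regions held most pairs counted lower over all probes, 307 in the NAc and 188 in the Cg of 893. All 5 pairs are of bright members, 5 of 210, where 817 of 87570 pairs of all bright probes were counted lower. By limma over the 10 arrays of a region with a dye term, 2 pairs (0.664%) were lower in HAB, where 0.248% of all pairs were, and none was higher, where 0.116% of all pairs were. Both lie in the NAc, which held 231 of the 396 lower calls over all probes.

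RNA binding motif protein, X chromosome retrogene, an intron-less copy of the gene for hnRNP G (RBMX), was counted in both regions. In the NAc its 10 arrays ran from -1.17 over a median of -0.65 to -0.34, with a mean of -0.73 (adjusted p = 0.0164 by limma). In the Cg they ran from -1.26 over -0.61 to -0.16, with a mean of -0.66 (adjusted p = 0.0691), and stood at -0.73 on the 6 arrays of one scanning day and -0.54 on the 4 of the other. In the CeA all 10 arrays were instead higher in HAB, from 0.12 over 0.32 to 0.70, with a mean of 0.33, which is below 1.3-fold. The PVN stood at 0.02, the BLA at -0.13, the MeA at 0.12 and the SON at -0.29, and in these 4 regions the arrays lay on both sides of 0. Retrogene and parent gene are close in sequence, and a cDNA spot may read both.

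The hnRNP methyltransferase-like 1, an arginine methyltransferase, was counted in the same regions. Its arrays in the NAc ran from -1.003 over a median of -0.69 to -0.42, with a mean of -0.66 (adjusted p = 0.0167 by limma). In the Cg they ran from -0.59 over -0.37 to -0.16, with a mean of -0.39 (adjusted p = 0.285), and stood at -0.40 and -0.38 on the 2 scanning days. Elsewhere the means were 0.16 in the PVN, -0.32 in the BLA, 0.18 in the CeA, 0.04 in the MeA and 0.00 in the SON, with arrays on both sides of 0. Both NAc calls kept a mean of at least 1.3-fold when any replicate number was left out, but not the adjusted p, which then ran from 0.0672 to 0.0965 for the retrogene and from 0.0763 to 0.114 for the methyltransferase.

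Beside these pairs, the marker genes of other cell types varied within the NAc and the Cg as well. Of 7 oligodendrocyte markers, 2 were counted lower in HAB in the NAc, and in the Cg 2 were counted lower and 2 higher, with region means from -1.36 to 0.46 in the NAc and from -0.99 to 1.30 in the Cg. Of 6 astrocyte markers, 1 was counted higher in the NAc and 2 lower in the Cg. Of 6 neuron markers, 1 was counted higher and 1 lower in the NAc and 1 higher in the Cg. Of 3 blood markers, 1 was counted higher in either region. No microglia or endothelium marker was counted in these regions. Of all 22824 probes, 307 were counted lower and 147 higher in the NAc, and 188 lower and 175 higher in the Cg. Markers were counted in other regions too, among them 2 oligodendrocyte markers higher in the CeA and 2 choroid plexus markers lower in the BLA. Over the regions 1 of the 42 markers passed the test, Hbb-b1, a beta globin of blood (0.84, adjusted p = 0.000342 by limma). The part of cell composition in the members' values was not tested.

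**Figure D3:**
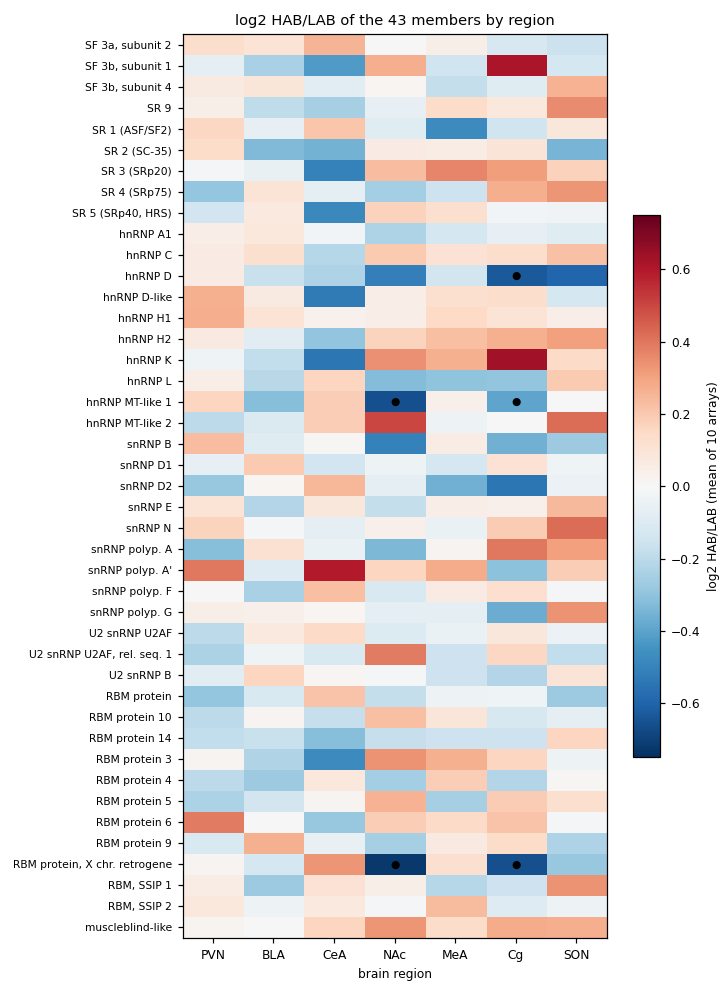
Mean log2 HAB/LAB of the 10 arrays of a region (columns) for each of the 43 members (rows), red where higher and blue where lower in HAB. Black dots mark the 5 pairs counted at 1.3-fold with all arrays in 1 direction, which lie in the NAc and the Cg.

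An F-test of limma over the 70 arrays asked whether the difference between the pools was unequal over the regions. Of the 43 members 7 (16.3%) passed, where 6.10% of all probes did. All 7 were bright, and among bright probes 23.3% of the members and 10.5% of all probes passed. They were the 3 members above, splicing factor 3b subunit 1, SRp20, hnRNP K and RNA binding motif protein 3.

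For the latter 4 the CeA held the lowest mean. In the CeA 7 of the 9 splicing factors and 6 of the 10 hnRNP members were below 0, with medians of -0.25 and -0.12 beside 0.01 for all probes. Of the other classes, 6 of 9 snRNP, 2 of 3 U2 and 6 of 11 RNA binding motif members were above 0. Their medians of 0.01, 0.01 and 0.02 were near that of all probes, and muscleblind-like stood at 0.16. The whole set had 21 of 43 above 0 and a median of -0.02 there, where 11651 of 22824 probes were above 0, and no member was counted. HnRNP K, which binds C-rich RNA and DNA, stood at -0.54 in the CeA, where 9 of 10 arrays were lower in HAB (from -0.92 over -0.63 to 0.55). It stood at 0.63 in the Cg, where 9 of 10 were higher (from -0.33 over 0.73 to 1.19), and at 0.34 in the NAc, where 10 of 10 were higher (from 0.03 over 0.33 to 0.65) at less than 1.3-fold. By scanning day, hnRNP K stood at -0.68 and -0.51 in the CeA and at 0.48 and 0.85 in the Cg. The F-test gave an adjusted p of 5.18e-06. The 2 other probes of hnRNP K were dim and stood at -0.19 and -0.33 in the CeA and at 0.31 and -0.24 in the Cg.

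SRp20, the smallest SR protein and one that also exports mRNA, stood at -0.51 in the CeA, with 9 of 10 arrays lower in HAB (from -1.13 over -0.56 to 0.24), and at 0.37 in the MeA, 0.31 in the Cg, 0.23 in the NAc and 0.17 in the SON (adjusted p = 0.00556). On the array 4 spots carry its name. The 3 others stood at -0.60, -0.42 and -0.25 in the CeA, at 0.26, 0.37 and 0.30 in the Cg and at 0.22, 0.37 and 0.39 in the NAc, so that the 4 spots had 1 direction in each of these regions, as they had in the MeA. They had no common direction in the PVN, the BLA and the SON. By scanning day, the brightest spot stood at -0.32 and -0.55 in the CeA and at 0.11 and 0.62 in the Cg. Day and dye largely coincide in the Cg, so these means cannot tell a day effect from a dye effect. With the scanning day as a block SRp20 no longer passed the F-test (adjusted p = 0.0825 by limma).

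RNA binding motif protein 3, which is induced by cold, stood at -0.48 in the CeA with 9 of 10 arrays lower in HAB (from -1.21 over -0.47 to 0.13) and at 0.34 in the NAc with 9 of 10 higher (from -0.39 over 0.31 to 1.05), with 0.27 in the MeA and 0.16 in the Cg (adjusted p = 0.00187). In the CeA it stood at -0.12 on 2 arrays of one scanning day and at -0.57 on 8 of the other. Splicing factor 3b subunit 1, the U2 particle protein that holds the branch point, stood at -0.42 in the CeA (from -1.06 over -0.36 to 0.07) and at 0.61 in the Cg (from -0.69 over 0.38 to 2.46, adjusted p = 0.0108). By scanning day it stood at -0.16 on 2 arrays and -0.49 on 8 in the CeA. Its value in the Cg was 1.20 where HAB carried Cy3 and 0.03 where it carried Cy5. On one scanning day it was 0.08 on 6 arrays, of which 1 had HAB in Cy3, and on the other 1.41 on 4 arrays, all with HAB in Cy3, so that day and orientation largely coincide there. Its 3 other probes stood at -0.43, 0.38 and 0.03 in the CeA and at 0.21, -0.41 and -0.15 in the Cg, and thus had no common direction. None of these 4 members passed limma within a single region.

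**Figure D4:**
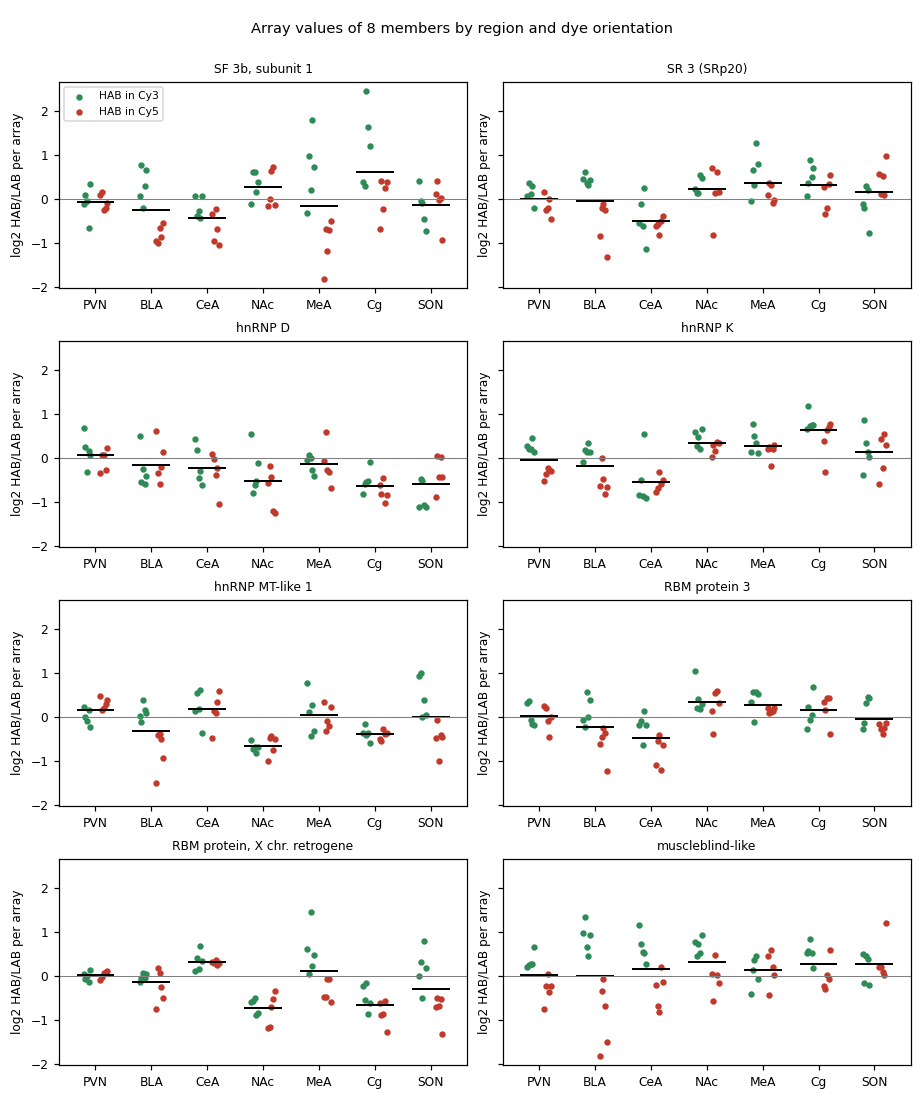
Log2 HAB/LAB of every array (points) by region for the 7 members past the F-test and for muscleblind-like, green where HAB carried Cy3, red where it carried Cy5. The black line is the mean of a region. The X chromosome retrogene and methyltransferase-like 1 have all 10 points below 0 in the NAc and the Cg, and muscleblind-like in the BLA has its orientations on opposite sides of 0.

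By class, the 9 splicing factors had a median of -0.01 over the regions, from -0.10 for SC-35 to 0.07 for SRp20, and the brightest was SRp20. SC-35, an SR protein of nuclear speckles, stood between -0.35 in the CeA and the SON and 0.14 in the PVN, and its second probe had a mean of -0.02. The 10 hnRNP members had a median of 0.04. HnRNP H1, a close relative of H2, was highest of the class with a mean of 0.11 (SE 0.077, adjusted p = 0.897 by limma) and was above 0 in 7 of 7 regions, from 0.03 in the CeA to 0.27 in the PVN. In each region its arrays lay on both sides of 0.

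The 9 snRNP members had a median of 0.01 and no counted pair. Polypeptide A', a U2 particle protein, was highest (0.17, SE 0.095, adjusted p = 0.844 by limma), at 0.60 in the CeA with 9 of 10 arrays higher in HAB, but was detected on only 18 channels of HAB and 10 of LAB. The Sm protein D2 was lowest (-0.15, SE 0.091, adjusted p = 0.86), from -0.54 in the Cg to 0.25 in the CeA. The brightest, the Sm protein E, stood between -0.22 in the BLA and 0.24 in the SON, with a mean of 0.02. The 3 U2 members had means of -0.01 for U2AF, -0.03 for its related sequence 1 and -0.03 for U2 snRNP B over the regions. Their SDs over regions were 0.12 for U2AF, 0.13 for U2 snRNP B and 0.22 for related sequence 1, beside a median of 0.22 for all probes. Related sequence 1 ran from -0.24 in the PVN to 0.39 in the NAc (F-test adjusted p = 0.116 by limma). The 2 other probes of U2AF stood at -0.01 and -0.13 over the regions. The 11 RNA binding motif members had a median of -0.03, from -0.19 for the X chromosome retrogene to 0.09 for RNA binding motif protein 6.

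Other genes of RNA processing were taken from a list of 131, of which 63 were matched to the array and are no members. None passed the test over regions in either direction by limma, and the median was 0.00. At an unadjusted p under 0.05 were 2 (3.17%), both lower in HAB (Cpsf3 and Clk2), against 6.33% of all probes. Of 441 pairs, 4 (0.907%) were counted higher in HAB and none lower, where 0.397% and 0.559% of all pairs were. By limma within a region 1 pair was higher, in the Cg, and 1 lower, in the NAc. Of all pairs 0.116% and 0.248% were. In the F-test 6 (9.52%) passed, where 6.10% of all probes and 10.5% of all bright probes did. First among them were Matr3, a nuclear matrix protein (adjusted p = 8.81e-08), and Smn1, which assembles snRNPs (adjusted p = 2.72e-06). In the dye test 4 (6.35%) passed, Qk, Srpk2, Dhx15 and Ncbp2, all higher with HAB in Cy3, as the 2 members were. In that direction 2.52% of all probes and 4.46% of all bright probes passed.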

How the data were processed

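Scanner intensities of 70 two-colour arrays were deposited by the authors on a linear scale, with no normalization, as spot and local background intensity per channel (ScanArray and QuantArray, per the study's methods). The authors also deposited a table of normalized log2 ratios, centred (medians -0.0071 to 0.0107), which correlated with the turned scanner ratios at 0.861 to 0.972 and served as an alternative. It holds 21 to 33 of the 43 members per array.

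Intensities were corrected with normexp (limma 3.58.1, R 4.3.3, offset 50), smoothed by loess (span 0.4, control spots at weight 0) and centred on the median of each of 48 print-tip blocks. The 1368 control spots were left out. Ratios were turned to HAB/LAB by the dye in each scan's header (3 arrays: from the image name), averaged within and then over dye orientations, and tested over 22824 probes with Benjamini-Hochberg adjustment. Scripts were tested on simulated data. The number of arrays limits the precision. No 2 arrays had an identical channel.

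Named are muscleblind, all members past a test over regions or the F-test, members counted in 2 or more regions, the largest counted member of a region in each direction, the 3 widest dye differences in each direction, and the brightest, highest and lowest of each class. The members and lists were chosen with earlier results of these data known. Alternatives changed background, normalization, source, filter, probe choice, replicates, regions, orientation and blocks.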

Additional observations from a re-analysis of the deposited data

Results flagged for a closer look

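The difference between the pools was unequal over the regions, by limma's F-test, for the X chromosome retrogene (adjusted p = 9.54e-07), hnRNP K (5.18e-06), methyltransferase-like 1 (0.000271), RNA binding motif protein 3 (0.00187), SRp20 (0.00556), splicing factor 3b subunit 1 (0.0108) and hnRNP D (0.0439).

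For the 10 members with array values above, 140 groups of 5 arrays were examined and in 8 of them 1 array lay far from the other 4. Chance gives about 1 in 20 such groups. The gap, as a share of the group's range, was 0.865 for muscleblind-like in the PVN with HAB in Cy3, where 1 array stood at 0.67 and the others at 0.22 to 0.28, and 0.845 in the SON with HAB in Cy5, where 1 stood at 1.21 and the others at 0.02 to 0.21. For hnRNP K it was 0.719 in the CeA with HAB in Cy3 (1 array at 0.55, the others at -0.92 to -0.51), 0.784 in the MeA with HAB in Cy5 and 0.833 in the Cg with HAB in Cy3. It was 0.736 for snRNP N in the MeA with HAB in Cy5, 0.752 for RNA binding motif protein 3 in the NAc with HAB in Cy3 and 0.734 for the X chromosome retrogene in the SON with HAB in Cy5.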

How the results depend on the processing

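No member passed the test over regions with any background correction, normalization, filter, probe choice, left-out replicate or left-out region tried. With HAB in Cy3 only, 2 passed (hnRNP H2 and muscleblind-like) and the median of the members was 0.0667. With HAB in Cy5 only, none passed and the median was -0.119. In 1 orientation a dye effect cannot be told apart from a line difference, and the share of all probes passing was not counted. Replicate numbers did not pair the arrays (correlations of deviations from -0.0511 to 0.0422, 8 of 35 best with their own number). With the replicate block, 0 pairs passed limma within a region and 6 members the F-test. A further fit used 35 values, each the mean of a HAB-in-Cy3 and a HAB-in-Cy5 array of equal number, with region as a random block. In it 1 member passed, hnRNP D (adjusted p = 0.0144 by limma), and the share of all probes was not counted. That fit takes technical replicates of the same pools as separate values (consensus correlation 0.04), so its p-value weighs the spread between arrays, not mice. With the scan day as a block 2 pairs passed limma within a region and 7 members the F-test, but SRp20 lost its F-test call (adjusted p = 0.0825) and SRp40 gained one. With the array median only, 3 pairs were counted, 4 passed limma, and 11 and 12 members passed the F-test and the dye test. With the deposited table, 10 pairs passed limma and 0 members the dye test. Among probes detected on at least 35 channels of a line, 5 pairs passed limma and 11 members the F-test. Without 1 replicate number, 4 to 9 pairs were counted, none passed limma within a region (0 to 0), and 4 to 5 members passed the F-test, 1 to 2 the dye test, with medians of -0.03 to 0.01. For none of these alternatives was the share of all probes counted. A change in the members' counts thus cannot be told apart from a change over the whole array. The causes were not tested. Of the 7 members past the F-test, the retrogene and methyltransferase-like 1 passed in every alternative that gave a value, hnRNP K in 14 of 15, RNA binding motif protein 3 in 13, SRp20 in 12, splicing factor 3b subunit 1 in 9 of 14 and hnRNP D in 7 of 15. With the mean of all probes of a name, hnRNP K (adjusted p = 0.264 by limma's F-test) and splicing factor 3b subunit 1 (0.577) did not pass. SRp20 (0.000249) did. HnRNP H2 passed the dye test in 12 of 13 and snRNP N in 8.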
